A study of Homo sapiens with 4 samples.

Results

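Amino acids enter and leave human cells through solute carriers of the plasma membrane, and the levels of 10 of these carriers were followed in SKBR3 breast cancer cells with and without raised VIRMA. The 10 genes were SLC3A2, SLC7A5, SLC7A11, SLC7A1, SLC1A5, SLC1A4, SLC38A1, SLC38A2, SLC6A9 and SLC43A1. They were taken by gene symbol from the 56271 rows of a table of RNA sequencing counts, and each symbol matched 1 row. SKBR3 is an established HER2-positive line that the study lists among cells with low VIRMA of their own. VIRMA is a scaffold protein of the complex that places N6-methyladenosine (m6A) on RNA, and the comparison asks which transcripts differ when it is raised.

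Poly-A-enriched RNA was sequenced from 2 eGFP control libraries and 2 VIRMA-overexpressing libraries. Per the study's methods, both groups carried the FUW lentiviral vector with the human ubiquitin C promoter. The control vector gave eGFP alone, and the other gave HA-tagged full-length VIRMA with eGFP separated by p2A. Cells positive for eGFP were sorted and grown on as populations and not as single clones, so a difference between the transduced populations and an effect of VIRMA cannot be told apart. The labels of all 4 libraries carry a protocol for cells kept at low oxygen and lysed for protein, whereas the study describes its RNA sequencing without low oxygen. The oxygen level is therefore uncertain and was taken to be shared by both groups. The replicates are called biological duplicates, with no word on separate transductions. The p-values therefore rest on the spread between these libraries, which the test pools in part across genes.

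These carriers work as exchangers, uniporters and sodium-coupled pumps. SLC3A2 is the heavy chain of a family of heteromeric exchangers. It is joined by a disulfide bond to a light chain that does the transport, and it brings that light chain to the cell surface. SLC7A5 is the light chain for large neutral amino acids such as leucine, and SLC7A11 is the light chain that imports cystine in exchange for glutamate. SLC1A5 and SLC38A2 bring in glutamine and other small neutral amino acids, and the exchange of glutamine for leucine is one route by which tumour cells feed mTORC1. Many of these genes are known targets of ATF4, a transcription factor translated when amino acids are short or the endoplasmic reticulum is stressed. ATF4 binds, as a dimer with C/EBP proteins, an element with the core TGATGCAA.

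Promoters are shown for the members in which this core or its looser form TGATGNAA, where N is any base, was found. A promoter here is the 300 bases from 250 before to 50 after a start site in RefSeq (GRCh38.p14), and 16 promoters of 9 members matched by symbol, all members except SLC7A11. Each line gives 30 bases, read 5′ to 3′ on the strand of the gene, and the capitals mark the match. In SLC1A4 and SLC3A2 the core is on the opposite strand and is therefore seen as its reverse complement.
SLC1A4: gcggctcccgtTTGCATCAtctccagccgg
SLC1A5: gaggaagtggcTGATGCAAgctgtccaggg
SLC3A2: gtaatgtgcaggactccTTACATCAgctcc
SLC7A1: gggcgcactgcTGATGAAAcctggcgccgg
SLC38A1: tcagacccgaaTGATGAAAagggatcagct

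The window of SLC1A4 lies at chr2:64989381-64989410 on the plus strand, in an exon of the gene in GENCODE, and its match begins 7 bases before a start inside the gene. That of SLC1A5 lies at chr19:46784893-46784922 on the minus strand, in an exon, with the match 97 bases before a start inside the gene. That of SLC3A2 lies at chr11:62881719-62881748 on the plus strand, in an exon, with the match at base 38 from a start inside the gene. That of SLC7A1 lies at chr13:29595663-29595692 on the minus strand, in an exon, with the match at base 8 from the outermost start of the gene. That of SLC38A1 lies at chr12:46266502-46266531 on the minus strand, in an intron, with the match 4 bases before a start inside the gene.

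Both strands were searched, and every TGATGCAA is also a TGATGNAA. The exact core was in 2 of the 16 promoters and in 2 of the 9 members, SLC1A4 and SLC1A5. Over all, it was in 0.87% of 35116 promoters and in 1.08% of 27305 genes. The looser form was in 5 of the 16 promoters and in 5 of the 9 members, beside 3.62% of all promoters and 4.46% of all genes. The windows of SLC6A9, SLC7A5, SLC38A2 and SLC43A1 did not hold these letters. A match is a stretch of letters, and binding was not measured.

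VIRMA, listed under its older symbol KIAA1429, lies on the minus strand of chromosome 8 (94487693 to 94553529 in GRCh38). The control libraries held 710 and 682 of its counts and the VIRMA-overexpressing libraries 3437 and 3460, a log2 fold change of 2.29 ± 0.07 (SE). Total counts were 85389375 and 86375474 in the controls against 82942841 and 81446932 in the VIRMA-overexpressing libraries. The share of mitochondrial genes lay between 11.4% and 11.6% in the controls and was 12.8% in each VIRMA-overexpressing library. Replicates differed by more than sampling noise, with a chi-square per degree of freedom of 5.08 between the controls and 4.31 between the VIRMA-overexpressing libraries. Of 8 epithelial and HER2 markers, 7 passed the filter, among them ERBB2, and CDH1 was near absent with 5 to 33 counts. The 8 summed to 26636 and 26195 CPM in the controls against 23704 and 23875 in the VIRMA-overexpressing libraries. CPM are counts scaled to 1000000 per library, after TMM. Of the 8, 3 were higher in both controls and 4 were higher in both VIRMA-overexpressing libraries. KRT8 went from 8398 and 8337 CPM in the controls to 5845 and 5903 CPM, and the groups overlapped for ERBB2. Markers that SKBR3 should lack summed to 15.3 CPM in each control and to 9.92 and 10.4 CPM in the VIRMA-overexpressing libraries, 4 of 6 were higher in both controls, and COL1A1 made up most of the sum. Erythroid markers moved with the groups. Their summed level was 28.7 and 20.7 CPM in the controls and 0.814 and 0.834 CPM in the VIRMA-overexpressing libraries, 9 of 15 were higher in both controls, none was higher in both VIRMA-overexpressing libraries, HBG1 and GYPB were at 0 in all 4, and HBB, which made up most of the sum, was at 0 in both VIRMA-overexpressing libraries. Leukocyte markers summed to 922 and 942 CPM in the controls and 634 and 633 CPM in the VIRMA-overexpressing libraries, with 11 of 17 higher in both controls, 2 higher in both VIRMA-overexpressing libraries and MS4A1 at 0 throughout. Most of that sum was S100A9 (from 561 and 579 down to 441 and 433 CPM), CORO1A and S100A8, whereas the leukocyte antigen PTPRC had 23 and 13 control counts against 3 and 0, and CD3D had at most 2. The part of these markers in the results below was not tested, and in bulk RNA fewer cells of a type and less RNA per cell cannot be told apart.

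Of the 10 transporters, 9 passed the filter on low values (RPKM, which is CPM on plain library totals divided by kilobases of exon, above 1 in at least 2 libraries), and all 9 rose. They rose at an adjusted p below 0.05 in edgeR's quasi-likelihood test, adjusted over all 12205 genes tested, and 0 fell. Among all tested genes 35.1% rose and 35.9% fell by this rule, so that a gene past it was common in either direction. The 10 were chosen with earlier results of these data known, so their counts beside these shares are a description. With a log2 fold change above 1 asked for as well, SLC7A11, SLC6A9 and SLC38A2 passed, 3 of 9, against 4.52% of all tested genes, and 0 of 9 fell below -1, against 2.93%. The median log2 fold change was 0.93 over the 9 transporters, with a range of 0.44 to 2.83, and 0.01 over all tested genes. In all 9 both VIRMA-overexpressing libraries lay above both controls, as they did in 42.7% of all tested genes, with 41.6% the other way round. SLC7A11 passed the filter only through the VIRMA-overexpressing libraries, at RPKM 0.438 and 0.355 in the controls and 3.01 and 2.96 in the others, so its place among the tested genes depended on its being high there. The other 8 were above the minimum in all 4 libraries. Without a filter, all 10 transporters rose, with a median of 0.93, against 14.4% of 33976 genes that rose and 15.3% that fell.

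**Figure D1:**
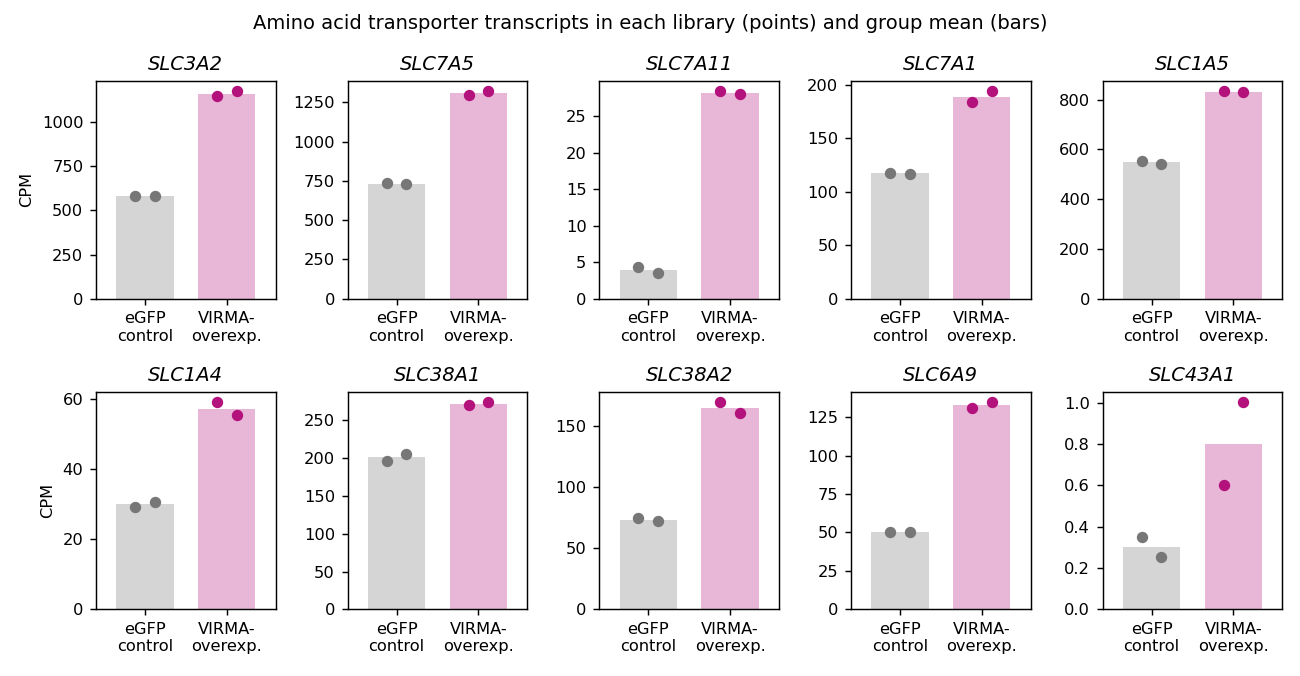
Levels of the 10 transporters (CPM, linear axes from 0, a separate scale for each gene) in the 2 eGFP control and 2 VIRMA-overexpressing libraries. Points are libraries and bars are group means. Both VIRMA-overexpressing points lie above both control points in every panel, from SLC7A5 with a mean of 1308 CPM to SLC43A1 at or below 1.00 CPM.

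The heavy chain SLC3A2 (chromosome 11, 62856102 to 62888875, plus strand) was at 581.9 and 578.2 CPM in the controls and 1147 and 1172 CPM in the VIRMA-overexpressing libraries. The library pairs were tight and far apart. The means were 580.0 ± 2.62 and 1160 ± 17.7 CPM (SD, n = 2 libraries each), a log2 fold change of 1.00 ± 0.03 (SE; adjusted p = 3.40e-27). Before rounding the estimate was 0.9996, just under the threshold of 1, and leaving out VIRMA-overexpressing replicate 1 took it to 1.02.

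SLC7A5, the light chain also called LAT1 (chromosome 16, 87830023 to 87869488, minus strand), was at 735.1 and 728.1 CPM in the controls and 1296 and 1319 CPM in the VIRMA-overexpressing libraries. Again both VIRMA-overexpressing libraries were above both controls, with replicates close together. It rose by 0.84 ± 0.03 on the log2 scale (SE; adjusted p = 3.01e-25), which is 1.79-fold. Of its exonic length 5.71% overlaps RP4-536B24.2 on the opposite strand, which had 17 and 19 counts in the controls against 27 and 39 in the VIRMA-overexpressing libraries. Its pseudogene SLC7A5P1 had 57 to 144 counts, and SLC7A5P2 had 0 in all libraries, so both were small beside the 60349 to 109929 counts of SLC7A5.

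SLC7A11, the cystine carrier also called xCT (chromosome 4, 138164097 to 138242349, minus strand), showed the steepest change of the 9. It had 361 and 296 counts in the controls against 2408 and 2323 in the VIRMA-overexpressing libraries, or 4.38 and 3.57 CPM against 28.4 and 28.1 CPM. The controls differed more from each other than the VIRMA-overexpressing libraries did, and neither came near them. The log2 fold change was 2.83 ± 0.09 (SE; adjusted p = 7.86e-25), a 7.10-fold difference and the 27th highest of the 12205 genes. SLC7A11 passed the filter only through the VIRMA-overexpressing libraries, so its place in this ranking depended on its being high there. The antisense RNA SLC7A11-AS1 overlaps 8.97% of its exonic length and had 6 and 2 counts in the controls against 47 and 15 in the VIRMA-overexpressing libraries. Whether counting used strand is not given in the sources used here, so these reads cannot be told apart with certainty, although the antisense counts were few beside those of SLC7A11.

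Heavy and light chain are found in pairs, and the ratio of their transcripts within a library does not depend on scaling between libraries. Per kilobase of exon, SLC7A5 stood to SLC3A2 as 1.38 and 1.37 in the controls and as 1.23 in both VIRMA-overexpressing libraries. The ratio was lower in both VIRMA-overexpressing libraries, with a difference in log2 ratio of -0.16 and an SD within groups of 0.0037. SLC7A11 stood to SLC3A2 as 0.00404 and 0.00332 in the controls against 0.0133 and 0.0129 in the VIRMA-overexpressing libraries, a difference of 1.84 in log2 ratio (SD within groups 0.15). In both ratios the groups did not overlap, and the exact two-sided permutation p was 0.333, the smallest that 2 against 2 allows.

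**Figure D2:**
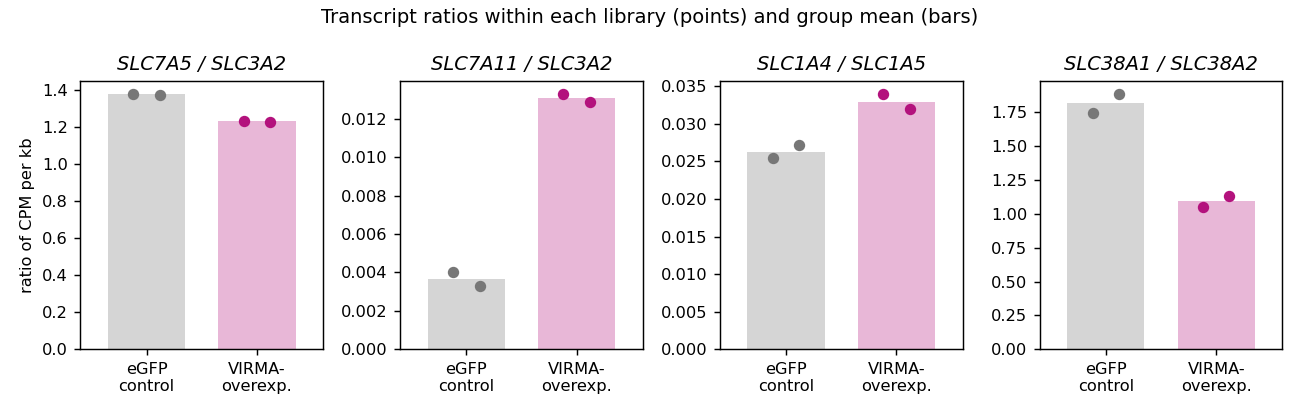
Ratios of transcript levels (CPM per kb of exon, linear axes from 0) within each library for 4 pairs of transporters. Points are libraries and bars are group means. The ratios of SLC7A5 to SLC3A2 and of SLC38A1 to SLC38A2 were lower in both VIRMA-overexpressing libraries, and those of SLC7A11 to SLC3A2 and of SLC1A4 to SLC1A5 were higher.

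SLC7A5 held 94.8% to 96.1% of the summed light-chain transcript in all 4 libraries, counting SLC7A5, SLC7A6, SLC7A7, SLC7A8, SLC7A10 and SLC7A11 per kilobase. SLC7A11 went from 0.278% and 0.229% of that sum in the controls to 1.03% and 1.01%, while SLC7A8 (LAT2, a second light chain for neutral amino acids) went from 3.44% and 3.53% to 1.77% and 1.76%. The summed light chains were 1.45 times the heavy chain in both controls and 1.28 times in both VIRMA-overexpressing libraries. These are ratios of transcripts, and surface protein was not measured here.

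SLC7A1, the arginine and lysine carrier CAT1 (chromosome 13, 29509410 to 29595688, minus strand), works without the heavy chain. It was at 117.9 and 116.5 CPM in the controls and at 184.0 and 194.0 CPM in the VIRMA-overexpressing libraries. The controls nearly coincided and the groups were apart. Its log2 fold change was 0.69 ± 0.03 (SE; adjusted p = 2.97e-19), a 1.61-fold difference.

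SLC1A5 (ASCT2, an exchanger of glutamine and other neutral amino acids; chromosome 19, 46774883 to 46788594, minus strand) was at 551.9 and 543.1 CPM in the controls and at 833.2 and 831.9 CPM in the VIRMA-overexpressing libraries. The 2 VIRMA-overexpressing libraries were all but equal and above both controls. It rose by 0.60 ± 0.03 on the log2 scale (SE; adjusted p = 1.71e-20), 1.52-fold. CTB-147N14.6, on the opposite strand, overlaps 23.4% of its exonic length with 9 to 16 counts per library, against 45011 to 70652 for SLC1A5.

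SLC1A4 (ASCT1, an exchanger of serine, alanine and cysteine; chromosome 2, 64988477 to 65023865, plus strand) was at 29.2 and 30.7 CPM in the controls and at 59.0 and 55.3 CPM in the VIRMA-overexpressing libraries. The groups did not overlap, and the replicates were further apart than for SLC1A5. Its log2 fold change was 0.93 ± 0.05 (SE; adjusted p = 3.17e-18), 1.91-fold. Between the related carriers, SLC1A4 per kilobase was 0.0254 and 0.0271 of SLC1A5 in the controls against 0.0340 and 0.0319 in the VIRMA-overexpressing libraries, a difference of 0.33 in log2 ratio (SD within groups 0.065; exact two-sided permutation p = 0.333, the smallest possible).

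The sodium-coupled neutral amino acid carriers SLC38A1 (SNAT1) and SLC38A2 (SNAT2) are neighbours on chromosome 12, at 46183063 to 46270017 and 46358189 to 46372867, both on the minus strand. SLC38A1 was at 196.9 and 205.2 CPM in the controls and at 270.1 and 274.2 CPM in the VIRMA-overexpressing libraries. SLC38A2, the member of the pair known to be induced when amino acids are short, was at 74.4 and 71.8 CPM in the controls and at 169.3 and 160.0 CPM in the VIRMA-overexpressing libraries. Neither gene had overlapping groups.

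SLC38A1 had the smallest change of the 9, a log2 fold change of 0.44 ± 0.03 (SE; adjusted p = 1.30e-14), 1.35-fold. SLC38A2 had the third largest, 1.17 ± 0.04 (SE; adjusted p = 5.80e-25), 2.25-fold. Per kilobase, SLC38A1 was 1.74 and 1.88 times SLC38A2 in the controls and 1.05 and 1.13 times in the VIRMA-overexpressing libraries, so the pair came close to equal levels there. The difference in log2 ratio was -0.73 (SD within groups 0.076; exact two-sided permutation p = 0.333, the smallest possible).

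SLC6A9, the sodium- and chloride-coupled glycine carrier GLYT1 (chromosome 1, 43991500 to 44031467, minus strand), was at 50.1 and 50.3 CPM in the controls and at 130.8 and 134.7 CPM in the VIRMA-overexpressing libraries. The controls were almost identical and the VIRMA-overexpressing libraries were both far above them. The log2 fold change was 1.40 ± 0.04 (SE; adjusted p = 7.10e-27), 2.64-fold and second only to SLC7A11 among the 9. CCDC24, on the opposite strand, overlaps 7.83% of its exonic length. Its counts went the other way, from 1328 and 1229 in the controls to 1044 and 1016, whereas SLC6A9 had 4130 and 4172 counts in the controls against 11091 and 11153 in the VIRMA-overexpressing libraries.

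SLC43A1 (LAT3, a uniporter of large neutral amino acids; chromosome 11, 57484534 to 57515786, minus strand) was low everywhere, with 29 and 21 counts in the controls against 51 and 83 in the VIRMA-overexpressing libraries. These are 0.352 and 0.253 CPM against 0.601 and 1.00 CPM, below the filter, so it was not among the genes tested. The VIRMA-overexpressing libraries were above the controls but differed from each other by more than the controls did. Fitted with all genes kept, it had a log2 fold change of 1.37 ± 0.42 (SE; adjusted p = 0.0046), with an SE more than 4 times that of any other member.

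To compare the transporters with each other, CPM was divided by exonic length, which is the joined length of all listed exons and may exceed that of the transcript a cell makes. By this level the order in the controls was SLC1A5 (164 CPM per kb), SLC7A5 (154), SLC3A2 (112), SLC38A1 (20.1), SLC7A1 (15.2), SLC38A2 (11.1), SLC6A9 (9.74), SLC1A4 (4.32), SLC7A11 (0.412) and SLC43A1 (0.0857). No neighbours in this order had overlapping libraries. In the VIRMA-overexpressing libraries SLC7A5 came first (276 CPM per kb), then SLC1A5 (250) and SLC3A2 (224). Next came SLC38A1 (27.2), SLC6A9 (25.7), SLC38A2 (24.9) and SLC7A1 (24.6), and here SLC38A2 overlapped with both SLC6A9 and SLC7A1. SLC1A4 (8.24), SLC7A11 (2.93) and SLC43A1 (0.227) remained last. Thus carriers that had differed from 9.74 to 20.1 CPM per kb in the controls lay between 24.6 and 27.2 CPM per kb.

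SLC7A5, SLC1A5 and SLC3A2 together held most of the transporter transcript. They made up 87.7% and 87.5% of the summed level of the 10 per kilobase in the controls against 86.8% and 86.9% in the VIRMA-overexpressing libraries. The sum itself went from 493.7 and 489.2 to 858.3 and 868.2 CPM per kb. As a share of all counts, the 10 genes took 0.226% and 0.223% in the controls against 0.421% and 0.424% in the VIRMA-overexpressing libraries. Ranked by level among the 12205 tested genes, SLC7A5 moved from 261st to 121st and SLC3A2 from 364th to 147th. SLC7A11 stood 12148th in the controls and 8064th in the VIRMA-overexpressing libraries. It was ranked only because it passed the filter in the latter, so its place near the end in the controls follows from the filter.

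**Figure D3:**
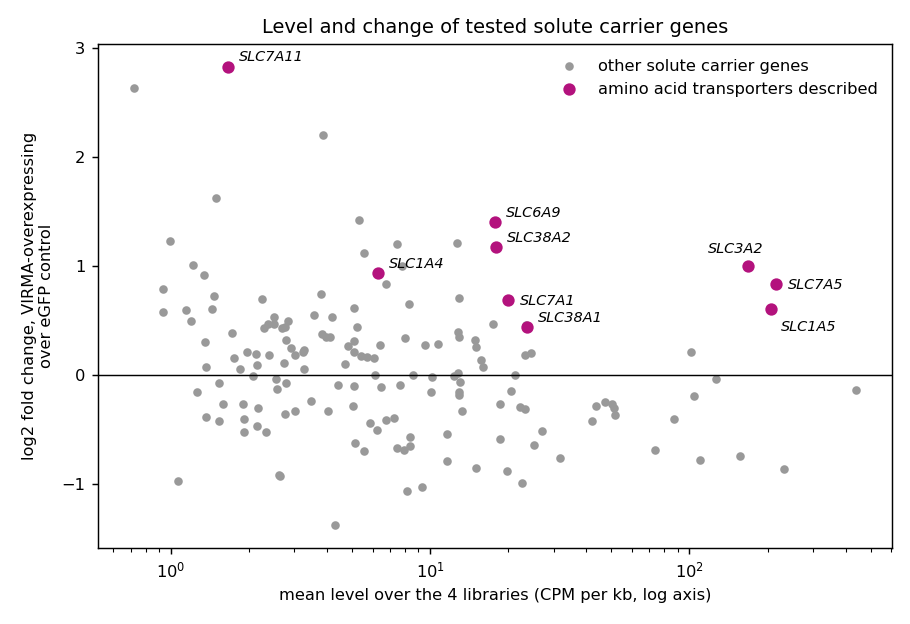
Mean level over the 4 libraries (CPM per kb of exon, log axis) against log2 fold change of VIRMA-overexpressing over eGFP control. Coloured points are the 9 tested transporters. Grey points are the 152 tested rows with a solute carrier symbol in none of the amino acid lists, so the other amino acid carriers are not drawn. The 9 lie between 0.44 and 2.83 on the vertical axis, and SLC3A2, SLC7A5 and SLC1A5 stand to the right with levels above 100 CPM per kb.

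The same test on other solute carriers gave changes in both directions. Of 407 rows with a solute carrier symbol in none of the amino acid lists, 152 were tested. Of these 64 rose, 60 fell and 28 did not pass, with a median log2 fold change of 0.0014. The rows were taken by symbol and hold some pseudogenes and antisense RNAs by name, such as SLC16A6P1 and SLC16A1-AS1. Among all 178 tested rows with a solute carrier symbol, the 9 transporters held ranks 1, 6, 10, 13, 15, 17, 25, 29 and 45 by log2 fold change. The rows between SLC7A11 and SLC6A9 in that order, named after their values were seen, were SLC6A21P (2.64, a pseudogene by its symbol), SLC22A31 (2.20), SLC16A8 (1.62) and SLC5A8 (1.42). Of the 178, 10 passed the filter only through the VIRMA-overexpressing libraries, SLC7A11, SLC6A21P and SLC16A8 among them.

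A further 30 carriers of amino acids at the plasma membrane were listed, of which 4 were at 0 in all libraries and 6 passed the filter. Of these 3 rose and 3 fell, against 35.1% and 35.9% of all tested genes, with a median log2 fold change of 0.12. SLC1A6, a glutamate carrier that like SLC7A11 passed the filter only through the VIRMA-overexpressing libraries, rose by 0.55 ± 0.11 (SE; adjusted p = 5.58e-05), SLC7A6, a light chain of SLC3A2, by 0.48 ± 0.07 (adjusted p = 2.12e-07) and SLC6A6, the taurine carrier, by 0.40 ± 0.06 (adjusted p = 2.37e-07). SLC43A2 (LAT4), a relative of SLC43A1, was at 67.7 and 66.3 CPM in the controls and at 34.7 and 37.1 CPM in the VIRMA-overexpressing libraries. It fell by 0.90 on the log2 scale (SE 0.05; adjusted p = 1.03e-18). SLC7A8 fell by 0.16 (SE 0.06; adjusted p = 0.0094), and SLC6A15, named after its values were seen, fell by 0.34 (SE 0.10; adjusted p = 0.003). The 3 that fell became 2 when counts were scaled by library totals or upper quartiles. SLC7A5 and SLC43A2 both carry leucine, and their changes had opposite signs.

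Amino acid carriers of inner membranes moved in both directions. Of 9 lysosomal carriers 6 were tested, of which 1 rose, 3 fell and 2 did not pass (35.1% and 35.9% of all tested genes rose and fell), with a median of -0.24. SLC36A1 (PAT1), which exports small amino acids from the lysosome, fell by 0.87 (SE 0.08; adjusted p = 1.93e-12). SLC38A7, which exports glutamine, fell by 0.57 (SE 0.07; adjusted p = 2.45e-09). PQLC2, which exports cationic amino acids, fell by 0.23 (SE 0.08; adjusted p = 0.013), and SLC15A4, a histidine and peptide carrier, rose by 0.17 ± 0.07 (SE; adjusted p = 0.02). The 3 that fell became 2 when counts were scaled by library totals or upper quartiles. The call on SLC15A4 was lost when any library but VIRMA-overexpressing replicate 1 was left out.

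Of 12 mitochondrial carriers 10 were tested, of which 2 rose, 6 fell and 2 did not pass, beside the same 35.1% and 35.9%, with a median log2 fold change of -0.09. SLC25A29, a carrier of basic amino acids, rose by 0.70 ± 0.03 (SE; adjusted p = 2.15e-20) and SLC25A38, which carries glycine for haem synthesis, by 0.30 ± 0.04 (adjusted p = 2.06e-08). SLC25A44, a carrier of branched-chain amino acids, fell by 0.52 (SE 0.06; adjusted p = 2.39e-10), and the serine carrier SFXN1 fell by 0.51 (SE 0.04; adjusted p = 3.15e-13). The 6 that fell became 3 when eGFP control replicate 2 or VIRMA-overexpressing replicate 2 was left out, and 2 when counts were scaled by library totals or upper quartiles.

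**Figure D4:**
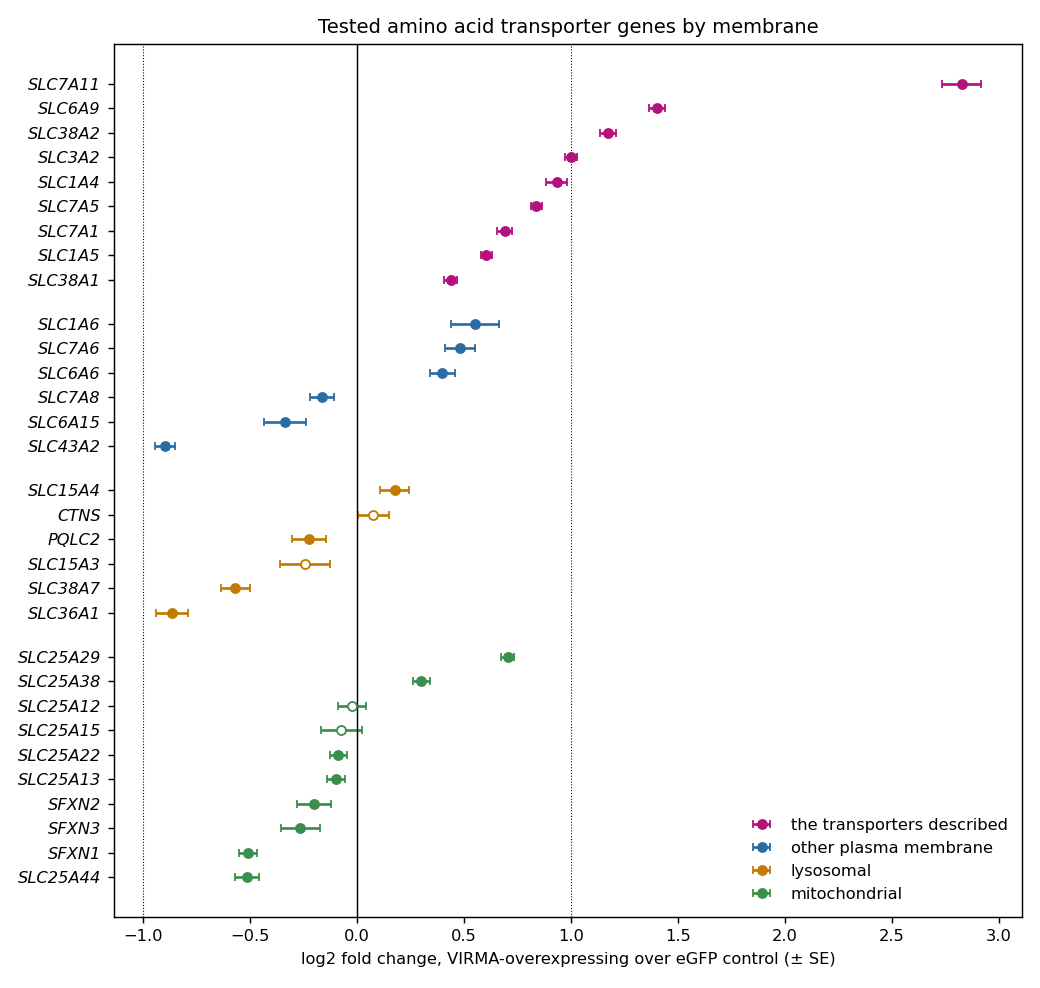
Log2 fold change of VIRMA-overexpressing over eGFP control (horizontal axis, bars are ± SE) for the tested amino acid carriers, grouped by membrane. Filled points passed an adjusted p of 0.05 and open points did not, and dotted lines mark -1 and 1. All 9 transporters described lie to the right of 0, and the other plasma membrane, lysosomal and mitochondrial carriers lie on both sides.

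The transcription factors known to act on these genes were listed with earlier results in view, and 7 of 8 rose and 1 fell, where 35.1% of all tested genes rose and 35.9% fell, with a median log2 fold change of 0.75. ATF4 itself was at 472.6 and 484.5 CPM in the controls and at 785.6 and 807.3 CPM in the VIRMA-overexpressing libraries, a log2 fold change of 0.73 ± 0.03 (SE; adjusted p = 1.53e-22). This is RNA. On western blots of SKBR3 cells the study reports minimal change of ATF4 protein in optimal culture and a rise under arsenite and hypoxia. Partners and targets of ATF4 moved further, DDIT3 (CHOP) by 3.48 ± 0.05 (SE; adjusted p = 3.20e-36), CEBPG by 1.81 ± 0.04 (adjusted p = 9.26e-29) and ATF3 by 1.37 ± 0.04 (adjusted p = 5.44e-25). CEBPB rose by 0.77 ± 0.03 (adjusted p = 1.53e-22). The remaining 3 were named after their values were seen. NFE2L2 (NRF2), known to act on SLC7A11, rose by 0.55 ± 0.07 (adjusted p = 1.05e-08) and its competitor BACH1 by 0.36 ± 0.09 (adjusted p = 0.00029). MYC, known to act on SLC1A5 and SLC7A5, fell by 0.40 (SE 0.03; adjusted p = 2.95e-13). The part of these factors in the changes of the transporters was not tested.

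Set beside the promoter windows, the 5 members with a match had log2 fold changes of 0.44 to 1.00. The 3 tested members with no match in these windows were SLC6A9, SLC7A5 and SLC38A2, with 1.40, 0.84 and 1.17. These 3 had 1 promoter each, against 1 to 3 for the 5 with a match. Sequence outside the windows was not searched, so a member without a match may hold the element elsewhere. The ranges of the 2 sets overlapped. These values are a description of 8 genes and were not tested.

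Partners that bind these carriers or control their stay at the surface were listed as well, also with earlier results in view. Of these 9, 5 were tested and all 5 fell, where 35.9% of all tested genes fell, with a median log2 fold change of -0.27. LAPTM4B, which recruits SLC7A5 with SLC3A2 to lysosomes, fell by 0.45 (SE 0.04; adjusted p = 1.16e-11). OTUB1, a deubiquitinase that binds SLC7A11, fell by 0.36 (SE 0.04; adjusted p = 3.13e-11). BSG (CD147), known to associate with SLC3A2, fell by 0.27 (SE 0.03; adjusted p = 1.18e-10), and RNF5, a ubiquitin ligase for SLC1A5 and SLC38A2, fell by 0.24 (SE 0.06; adjusted p = 0.00036). ITGB1, the integrin chain bound by SLC3A2 and named after its values were seen, fell by 0.22 (SE 0.05; adjusted p = 5.48e-05).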

How the data were processed

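Per the labels and the study's methods, reads were trimmed with Trimmomatic 0.39, aligned to hg38 with STAR 2.5.2a and counted per gene with featureCounts. The values deposited by the authors are raw counts per gene, not normalized. Use of strand and of reads with several alignments is not given in the sources used here. The control columns are named as such. The VIRMA-overexpressing columns carry a code and were assigned as the remaining group, and the counts of VIRMA check this.

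From these counts, RPKM was computed with the total of each library and the exonic lengths of the table. The 12205 genes above RPKM 1 in 2 or more of the 4 libraries entered edgeR 4.0.16 (R 4.3.3), where the quasi-likelihood test compared the groups with TMM scaling and no other term, and p-values were adjusted by Benjamini-Hochberg over all of them. CPM was taken after TMM scaling. Each SE is the log2 fold change over the root of its F statistic. Genes passed at an adjusted p under 0.05, and where stated also at a log2 fold change beyond 1, the study's thresholds. Alternatives used DESeq2 1.42.0 and limma 3.58.1 (voom), other scalings and filters, a replicate block, each library left out, and a test against a 2-fold change. The test was checked on simulated data.

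Members and lists were chosen with earlier results of these data known. Named were all 10 members, VIRMA, overlapping rows (1 is not reported here) and, per list, up to 4 passing genes with the largest change and 2 with the highest CPM. At total counts of 81446932 to 86375474 per library, SLC43A1, with 21 to 83 counts, was the member most limited by depth.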

Additional observations from a re-analysis of the deposited data

How the results depend on the processing

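Of the values recomputed under alternatives that keep all libraries, 278 stayed and 61 moved. A log2 fold change stayed if its sign and its call at the adjusted p held, and a median if it lay within the spread between replicates. A count of genes stayed if it changed by no more than a set factor. The 552 higher genes, which became 667 under upper quartiles, therefore counted as having stayed. VIRMA and the 9 tested transporters, the genes followed singly through the alternatives, kept their sign. The median of the other plasma membrane carriers turned negative with filterByExpr and with at least 10 counts. That of the other solute carriers, 0.0014, was -0.003 with DESeq2 and with its size factors in edgeR. No transporter lost its call at the adjusted p, the largest adjusted p being 2.57e-09 for SLC38A1 outside the test against a 2-fold change. SLC7A11, SLC6A9 and SLC38A2 stayed above 1 on the log2 scale in all 13 alternative fits, SLC3A2 was above 1 in 3 and SLC1A4 in 2. Tested against a 2-fold change, the adjusted p was 2.19e-19 for SLC7A11, 1.88e-11 for SLC6A9, 0.00022 for SLC38A2 and 1 for the others. The counts of genes past both thresholds (552 higher, 358 lower) were 1044 and 808 with filterByExpr, 1137 and 820 without a filter, 930 and 689 where every library had 10 or more counts, and 189 and 173 against a 2-fold change, and 495 to 579 and 352 to 374 with 1 library left out. These filters test 20568, 33976 and 17791 genes. Scaling by upper quartiles and by library totals shifted all genes by 0.07 and 0.09. Under them 5 transporters passed both thresholds instead of 3, and the median of the transporters went from 0.93 to 1.00 and 1.02, that of the other plasma membrane carriers from 0.12 to 0.19 and 0.20, lysosomal carriers from -0.24 to -0.16 and -0.15, mitochondrial carriers from -0.09 to -0.023 and -0.0085, transcription factors from 0.75 to 0.82 and 0.84, partners from -0.27 to -0.20 and -0.18, and other solute carriers from 0.0014 to 0.073 and 0.087. Carriers that fell numbered 2 under both in each of the mitochondrial, lysosomal and other plasma membrane lists. Lysosomal carriers that rose numbered 2 under library totals, and 1 other solute carrier was below -1 under both in place of 3. Under filterByExpr, no filter and at least 10 counts, other plasma membrane carriers that rose numbered 5 and those that fell 6 in each, and their median was -0.11 with filterByExpr and -0.27 with at least 10 counts. In the same 3 settings 0 lysosomal carriers rose, and 5 fell with filterByExpr and with at least 10 counts. The mitochondrial median was -0.14, -0.19 and -0.13, the transcription factor median 0.71, 0.72 and 0.72, and 1 partner rose (CD44, under the filter otherwise). Other solute carriers past both thresholds (9 higher, 3 lower) were 16, 17 and 14 higher and 10, 12 and 11 lower, with medians of 0.041 and 0.067 in the first 2 settings, and 5 higher and 1 lower against a 2-fold change. With 1 library left out, the lone library is assumed to vary like the other group. The medians then ran from 0.89 to 0.98 (transporters), 0.093 to 0.13 (other plasma membrane), -0.29 to -0.18 (lysosomal), -0.12 to -0.088 (mitochondrial), -0.30 to -0.26 (partners) and -0.0083 to 0.038 (other solute carriers). Lysosomal carriers that rose were 0 to 1, mitochondrial carriers that fell 3 to 5, and other solute carriers below -1 were 3 to 5, with 5 without eGFP control replicate 1. Replicate numbers are shared by the groups but mark no known pairing, and same-numbered libraries deviated with a correlation of 0.075. A block for the replicate number gave 541 higher and 356 lower genes, all 37 results stayed by the rules above, and no log2 value moved by more than 0.0026. The cause of the other moves was not tested. With 2 libraries a group, an exact test of 1 value cannot go below 0.333.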

Other observations

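Further amino acid carriers appeared once genes below the filter were included. Of the 26 other plasma membrane carriers with counts, 5 rose and 6 fell in the edgeR fit without a filter. Over all 33976 genes of that fit 14.4% rose and 15.3% fell. The carriers named here were chosen after their values were seen. SLC7A2 (CAT2), a cationic amino acid carrier like SLC7A1, had 64 and 67 counts in the controls against 196 and 180 in the VIRMA-overexpressing libraries, a log2 fold change of 1.46 ± 0.26 (SE; adjusted p = 1.28e-07). SLC1A3, a glutamate and aspartate carrier, had 487 and 451 counts in the controls against 229 and 224 in the VIRMA-overexpressing libraries, and it fell by 1.10 on the log2 scale (SE 0.16; adjusted p = 1.64e-11). SLC16A10 (TAT1), a uniporter of aromatic amino acids, went from 284 and 282 counts to 100 and 121 and fell by 1.41 (SE 0.21; adjusted p = 1.24e-10). SLC1A2, a glutamate carrier best known from astrocytes, had 280 and 304 counts in the controls against 493 and 432 in the VIRMA-overexpressing libraries, a log2 fold change of 0.61 ± 0.15 (SE; adjusted p = 0.00022). The groups did not overlap in any of these 4 genes, which adds nothing because they were picked by their values.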
